A study of Homo sapiens with 12 samples.

Results

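Lapatinib and GSK126 were set directly against each other in SKBR3 cells, an established human breast cancer line that carries extra copies of ERBB2, the HER2 gene. The comparison took all 3 libraries of cells given lapatinib alone and all 3 of cells given GSK126 alone, 6 of the 12 libraries of the series, and every gene of the table. Of 22170 genes, 13471 had a normalized read count of at least 10 in at least 3 of the 6 libraries and were tested, and the 86 spike-in transcripts were kept apart. All cells carried the label wild type. Lapatinib was present at 100 nM for 24 h in cells kept in vehicle (DMSO) until then, and GSK126 at 5 µM for 7 days, per the series' design text. Drug and length of exposure therefore cannot be told apart here. The 3 DMSO libraries and the 3 libraries of cells given GSK126 and then both drugs served only to place the levels. Nothing in the labels ties the libraries of a group to separate cultures, and p-values here therefore reflect library-to-library spread, which may be technical. In bulk RNA, fewer cells of a kind and less RNA per cell cannot be told apart.

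Lapatinib blocks the kinases of EGFR and HER2, whose signals run through the ERK and AKT pathways and drive entry into the cell cycle in HER2-amplified cells. GSK126 blocks EZH2, the catalytic subunit of PRC2, the complex that places a repressive methyl mark on histone H3 and helps to keep developmental and immune genes silent. When HER2 signalling is blocked, FOXO transcription factors are released and turn on genes of growth arrest and also genes of HER family receptors.

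The lapatinib libraries held 24192532 to 26256488 gene reads and the GSK126 libraries 28196073 to 30349466. Replicates lay much closer together with lapatinib (median SD of 0.11 on the log2 scale) than with GSK126 (0.42), and GSK126 library 1 stood apart from GSK126 libraries 2 and 3. On the first principal component, which held 68.5% of the variance, the drugs separated, and on the second, with 20.5%, GSK126 library 1 lay at 60.9 and GSK126 libraries 2 and 3 at -52.8 and -25.5. The spike-in transcripts made up 0.860 to 1.42% of reads with lapatinib and 0.384 to 1.33% with GSK126, and their relative amounts differed more between the drugs (0.42 to 0.61, root mean square on the log2 scale over 38 spike-ins) than within lapatinib (0.17 to 0.21). Within GSK126 they differed by more than between the drugs where library 1 was compared with libraries 2 and 3 (0.83 to 0.87), and by 0.31 between libraries 2 and 3. Drug and spike-in composition cannot be told apart in these 6 libraries. The nuclear RNA MALAT1 took 2.18 to 2.67% of gene reads with lapatinib and 4.04, 1.05 and 1.66% in the 3 GSK126 libraries. The luminal keratins KRT8, KRT18 and KRT19, EPCAM, ERBB2 and GRB7 were abundant in all 6 libraries, and CDH1 was at 0 in 5 of them. The leukocyte genes PTPRC, CD3E and CD2 and the endothelial genes PECAM1, KDR and CLDN5 stayed under 5 in all 6. Other members of both lists were expressed in some or all libraries, among them CD68 and ITGAM, and CDH5, VWF and ESAM. The endothelial list summed to 619 to 725 with lapatinib and 1620 to 2323 with GSK126, and the leukocyte list to 256 to 334 and 384 to 534.

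The states separated at 3240 genes, 24.1% of those tested (limma with Benjamini-Hochberg adjustment over all tested genes, adjusted p under 0.05), and the separation was lopsided in size. Of these, 1287 genes (9.55%) were higher with lapatinib and 1953 (14.5%) were higher with GSK126. At a difference of 2-fold or more the counts were 738 (5.48%) and 1583 (11.8%), at 4-fold or more 135 and 832, and at 16-fold or more 7 and 123. The median size of a called difference was 1.08 on the log2 scale for genes higher with lapatinib and 1.80 for genes higher with GSK126, while the median difference over all tested genes was 0.03. The libraries of the drugs did not overlap for 3008 genes with lapatinib on the higher side (22.3%) and for 3133 with GSK126 on the higher side (23.3%). At the other end, 5790 genes (43.0%) had a 95% interval of the difference that stayed within 2-fold. The adaptor protein gene GRB2, at 3865, 3724 and 3903 with lapatinib and 3950, 3932 and 3948 with GSK126, had a difference (lapatinib minus GSK126) with an interval of -0.38 to 0.29.

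The count of genes higher with lapatinib was the less firm of the 2. Without lapatinib library 1, 2 or 3 it was 432, 439 and 485, without GSK126 library 1 or 2 it was 2241 and 1991, and with all 12 libraries in the fit it was 2113. The main fit takes a common variance per gene for the drugs, whose replicates spread unequally. Leaving out a library also changes the mix of spreads in that variance, so a lost call need not mean reliance on that library. With weights by group, 1223 genes were higher with lapatinib and 1736 higher with GSK126. With the deposited scaling 39.7% of calls were higher with lapatinib. Scaled to the spike-ins, 32 genes were higher with lapatinib and 979 higher with GSK126, a share of 3.17%, and the median difference of all genes moved from 0.03 to -0.55. Of genes given below as higher with lapatinib with an SE, only THRSP, ABCC11, HSD17B2, C1orf64, KIAA1324 and XBP1 kept their calls under that scaling. CREB3L1 and COL1A2 kept theirs too. On the GSK126 side EZH2, CCND1, DUSP5, CDKN2B, INSIG1, FGFR3, INSR, JAG2, NOTCH1 and WNT4 were among those that lost the call. No gene called in one direction was called in the other under any alternative. In the rest of the text a difference is on the log2(count + 1) scale with its SE, and an adjusted p is from the limma fit. Every list count is to be read beside the shares of all tested genes, 9.55% higher with lapatinib and 14.5% higher with GSK126.

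**Figure D1:**
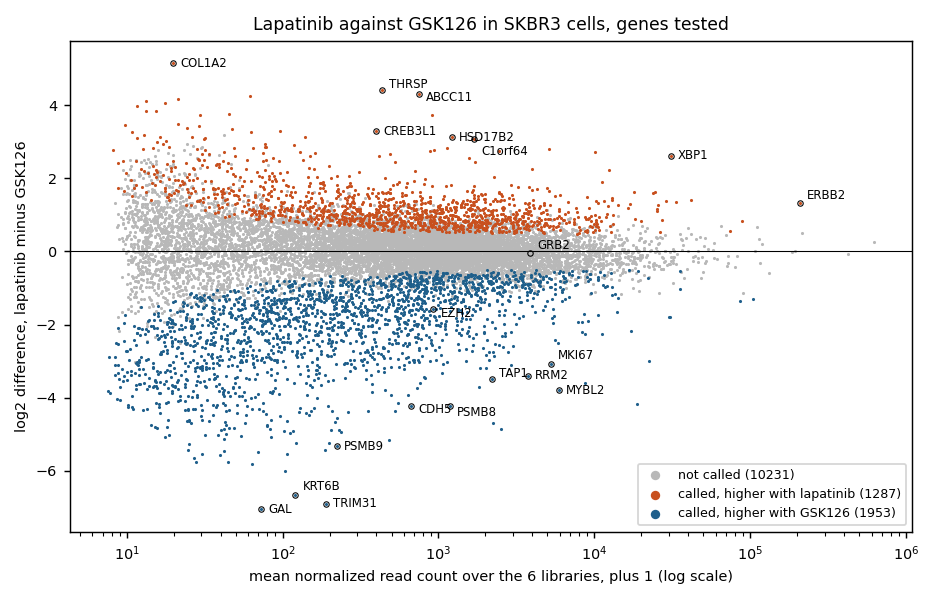
Each point is a gene tested, with its mean normalized read count over the 6 libraries plus 1 on the x axis (log scale) and the log2 difference, lapatinib minus GSK126, on the y axis. Called genes are coloured by direction; the downward arm, genes higher with GSK126, reaches past -6 with TRIM31, KRT6B and GAL, and the upward arm ends with COL1A2, THRSP and ABCC11 below 6.

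Genes of cell division made up the firmest group, and every one of the 30 mitosis genes tested was lower with lapatinib than with GSK126. The median difference of that list was 2.31 on the log2 scale in favour of GSK126, against 0.03 the other way for all tested genes, and 28 to 30 of its members were called when any 1 library was left out. MKI67, the proliferation marker, stood at 1040, 1118 and 1074 with lapatinib and at 12236, 8349 and 7587 with GSK126. The 3 DMSO libraries, at 8379, 7494 and 8266, overlapped the GSK126 range, and the MKI67 levels with lapatinib were the ones away from vehicle. MKI67 was higher with GSK126 by 3.09 ± 0.21 (adjusted p = 0.000112, limma). MYBL2, a transcription factor of the late cell cycle, was 845, 833 and 683 with lapatinib and 13193, 8392 and 11603 with GSK126, a difference of 3.79 ± 0.21 (adjusted p = 0.000109, limma). UBE2C, the ubiquitin-conjugating enzyme of the anaphase-promoting complex, AURKB, the kinase of the chromosomal passenger complex, and KIF2C, a kinesin of the centromere, were higher with GSK126 by 2.98 ± 0.16, 3.61 ± 0.26 and 2.72 ± 0.17.

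DNA replication and its supply lines divided the same way. Of 35 replication genes tested, 30 were higher with GSK126 and none higher with lapatinib (median difference of 1.47), with a range of 25 to 35 when 1 library was left out. CDC45, part of the replicative helicase, was at 167, 150 and 131 with lapatinib and at 1230, 1009 and 1122 with GSK126. Its groups did not overlap, and the difference was 2.90 ± 0.19 (adjusted p = 0.000109, limma). The licensing factor gene CDT1 differed by 2.63 ± 0.24, the helicase subunit MCM7 by 2.26 ± 0.19 and the polymerase clamp PCNA by 1.57 ± 0.15. RRM2, the regulated subunit of ribonucleotide reductase, stood at 651, 615 and 631 with lapatinib and at 4774, 8182 and 7641 with GSK126, and differed by 3.40 ± 0.23 (adjusted p = 0.00011, limma). Among nucleotide synthesis genes, 8 of 14 were higher with GSK126 (median 0.82). Of the G1 cyclin and E2F genes, 13 of 15 were, E2F2 by 2.93 ± 0.28 and CCNA2 by 2.62 ± 0.26. Of the genes of repair by recombination, 16 of 20 were, RAD54L by 2.97 ± 0.20. No member of these 3 lists was called higher with lapatinib.

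Many promoters of division genes carry binding sites for E2F factors, so 2 are shown for this group. They are CENPA, the centromeric histone, and PCNA, of the replication and mitosis lists. Members called higher with GSK126 were taken in order of p where an E2F core (TTTGGCGC or TTTCCCGC, either strand) lay upstream and outside annotated exons. Genes without a long enough exon-free stretch around the core, or on a chromosome set aside for this choice, were passed over. Both stretches lie upstream of the start of transcription and come from RefSeq, build GRCh38.p14, with the E2F core in capitals.
CENPA promoter stretch, chr2:26785806-26785905, plus strand: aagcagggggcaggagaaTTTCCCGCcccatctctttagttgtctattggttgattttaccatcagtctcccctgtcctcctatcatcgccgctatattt
PCNA promoter stretch, chr20:5126628-5126727, minus strand: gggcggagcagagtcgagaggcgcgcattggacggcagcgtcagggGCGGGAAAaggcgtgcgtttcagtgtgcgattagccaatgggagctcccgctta

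The levels of these 2 genes followed the rest of the group. CENPA was at 215, 165 and 161 with lapatinib and at 740, 937 and 1055 with GSK126, and PCNA at 2712, 2642 and 2828 against 7408, 8556 and 8287. DMSO held 895 to 974 for CENPA, within the GSK126 range, and 10294 to 11401 for PCNA, above it. The search covered 300 bases per gene, 250 before to 50 after the first start listed, for the 10633 tested genes matched by symbol or synonym. An E2F core lay in 3.72% of all these promoters and in 31.8% of those of the replication, mitosis and G1 lists (21 of 66). The shorter letters TTTGAA, the core of the cell cycle homology region that late cell cycle genes often carry, lay in 9.47% of all promoters. They lay in 32.2% of promoters of genes at least 2-fold higher with GSK126 whose DMSO level matched that with GSK126 (109 of 339), and in 7.98% where DMSO matched lapatinib (28 of 351). The E2F core and TTTGAA were found together in 46 promoters.

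Regulators of the G1 phase did not all move with the division genes. CCND1, the cyclin D1 gene, was at 3508, 3331 and 3353 with lapatinib and at 9773, 6787 and 6840 with GSK126, a difference of 1.18 ± 0.19 (adjusted p = 0.00301, limma). CDK6, its partner kinase, was at 236, 252 and 235 with lapatinib and at 1267, 1571 and 1035 with GSK126, a difference of 2.40 ± 0.20. DMSO was near the GSK126 level for CCND1 (8816 to 10158) and nearer the lapatinib level for CDK6 (353 to 476). Inhibitors of the cell cycle were also on the GSK126 side, with 6 of 12 higher there (14.5% of all tested genes were). Only 1, RBL2, was higher with lapatinib (9.55% of all tested genes were). The count on the lapatinib side was 0 without GSK126 library 3 or lapatinib library 1, 2 or 3, and 5 without GSK126 library 2. The p21 gene CDKN1A was at 216, 192 and 145 with lapatinib and at 624, 615 and 1006 with GSK126, a difference of 1.99 ± 0.26 (adjusted p = 0.00121, limma). CDKN2B and CDKN1C, the genes of p15 and p57, were higher with GSK126 by 1.70 ± 0.24 and 2.84 ± 0.38. CDKN2D, the p19 gene, differed by 2.51 ± 0.33, and its DMSO libraries (313 to 348) lay inside the GSK126 range.

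Readouts of ERK signalling were lower with lapatinib, as 11 of 18 tested members, with none higher (median difference of 1.49 in favour of GSK126). ETV4, a transcription factor induced by ERK, was at 21.5, 10.6 and 17.8 with lapatinib and at 157, 186 and 240 with GSK126. The DMSO libraries, at 159 to 210, overlapped GSK126, and the difference was 3.49 ± 0.34 (adjusted p = 0.000332, limma). The immediate early gene EGR1 was at 67.6, 67.1 and 63.8 with lapatinib and at 315, 258 and 274 with GSK126, and differed by 2.07 ± 0.21. Its DMSO libraries (168 to 196) lay between the drugs and outside both, and the combination was at 230 to 324. Over the list's tested members the median difference from DMSO was -1.18 with lapatinib, 0.18 with GSK126 and 0.10 with the combination. DUSP5, a phosphatase that acts on ERK, and EPHA2, an ephrin receptor, differed by 1.65 ± 0.22 and 1.83 ± 0.26. MYC (0.04, lapatinib minus GSK126) and DUSP6 (-0.46), members of the same list, did not pass the test.

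PRC2 itself differed between the states. The EZH2 transcript, whose protein GSK126 blocks, was at 463, 437 and 494 with lapatinib and at 1202, 1542 and 1407 with GSK126. The groups did not overlap, DMSO was at 1533 to 1562, and the difference was 1.57 ± 0.18 (adjusted p = 0.000594, limma). Of 12 subunit genes, 6 were higher with GSK126, counting EED, SUZ12 and RBBP7, and none were higher with lapatinib. The count was 3 without lapatinib library 1, 2 or 3 or without GSK126 library 2. PHF19, an accessory subunit that binds methylated histone H3, was at 18.6, 13.8 and 17.8 with lapatinib and at 239, 165 and 246 with GSK126, a difference of 3.60 ± 0.29 (adjusted p = 0.000161, limma). DMSO was at 18.8 to 31.0, so for PHF19 the GSK126 libraries were the ones away from vehicle, unlike for EZH2. C17orf96, another accessory subunit, differed by 2.23 ± 0.27, with DMSO (399 to 478) between the drugs.

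**Figure D2:**
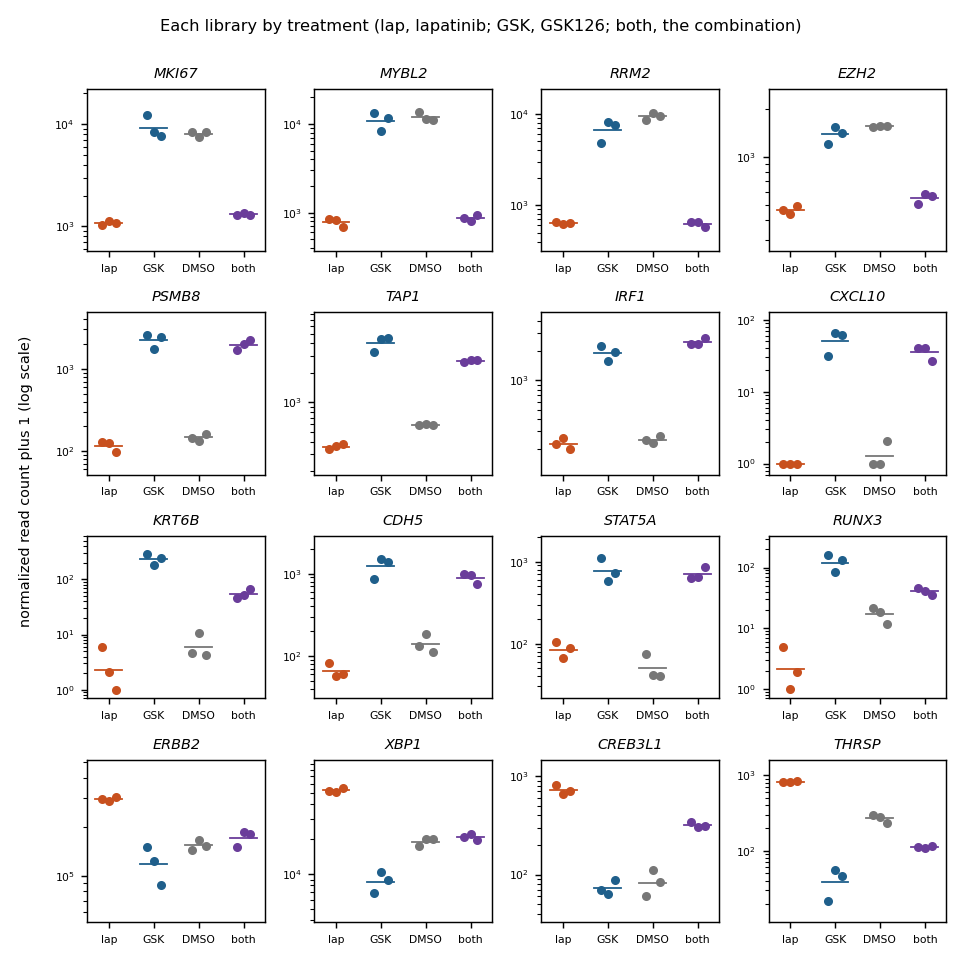
Normalized read count plus 1 (log scale) of 16 genes in each library, by treatment, with a line at each group's mean of log2 values. For MKI67, MYBL2, RRM2 and EZH2 the DMSO points sit with GSK126; for PSMB8, TAP1, IRF1 and CXCL10 they sit with or near lapatinib.

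Antigen presentation and interferon genes formed the second large block on the GSK126 side, at levels that DMSO and lapatinib cells largely shared. Of 20 genes of MHC class I presentation tested, 14 were higher with GSK126 and none higher with lapatinib (median difference of 2.03), with 12 to 16 called when 1 library was left out. PSMB8, a catalytic subunit of the immunoproteasome, was at 128, 125 and 96.7 with lapatinib and at 2574, 1734 and 2408 with GSK126. The groups were far apart, DMSO (133 to 161) lay close to lapatinib, and the difference was 4.24 ± 0.22 (adjusted p = 0.000109, limma). The peptide transporter gene TAP1 was at 334, 358 and 374 with lapatinib and at 3239, 4396 and 4556 with GSK126, a difference of 3.50 ± 0.19. HLA-B, a class I heavy chain gene whose reads may be shared with its relatives, differed by 3.21 ± 0.25. B2M (-0.71, lapatinib minus GSK126) and HLA-E (-0.26) did not pass the test.

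Within each library the immune subunits of the proteasome were set against the constitutive subunits they replace. The ratio of PSMB8 to PSMB5 counts was 0.0228, 0.0226 and 0.0191 with lapatinib and 0.497, 0.343 and 0.331 with GSK126. On the log2 scale that ratio was 4.16 higher with GSK126, and the corresponding gaps were 4.62 for PSMB9 to PSMB6 and 2.18 for PSMB10 to PSMB7. A ratio within a library does not depend on how libraries were scaled, and for all 3 pairs no lapatinib library reached a GSK126 library. DMSO held 0.0166 to 0.0217 for PSMB8 to PSMB5, and the combination 0.412 to 0.449.

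Of 32 interferon-responsive genes, 21 were higher with GSK126 and 1, STAT2, was higher with lapatinib by 0.53 (median difference of 1.97 in favour of GSK126, 18 to 22 called on that side when 1 library was left out). The call of STAT2 was lost without lapatinib library 1, 2 or 3 and without GSK126 library 3. IRF1, a transcription factor that interferon induces, was at 220, 257 and 196 with lapatinib and at 2221, 1560 and 1940 with GSK126, a difference of 3.08 ± 0.21 (adjusted p = 0.00011, limma). PARP14, an ADP-ribosyltransferase, was at 4.90, 3.19 and 5.63 with lapatinib and at 162, 190 and 126 with GSK126, a difference of 4.85 ± 0.35. CXCL10, a T cell attracting chemokine, was at 0 in all 3 lapatinib libraries and at 30.7, 63.7 and 61.0 with GSK126. Counted against a floor of 3 reads per library, CXCL10 was at least 17.4-fold higher with GSK126. IRF9 (0.25, lapatinib minus GSK126), part of the complex that carries the type I interferon signal, did not pass the test. Class II genes were few: HLA-DQB1, HLA-DOB and CTSS of 4 tested were higher with GSK126. HLA-DMA was higher with lapatinib by 0.96 ± 0.21, a call lost without lapatinib library 1, 2 or 3 (adjusted p = 0.0588, 0.0725 and 0.0583).

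Interferon-responsive promoters often carry a short element, so 2 are shown with its core in capitals (TTTCNNTTT, either strand), chosen and sourced as for the E2F pair, from CXCL10 and OAS3, an antiviral oligoadenylate synthase.
CXCL10 promoter stretch, chr4:76023648-76023747, minus strand: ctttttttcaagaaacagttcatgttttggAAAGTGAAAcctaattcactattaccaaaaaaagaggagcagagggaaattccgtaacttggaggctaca
OAS3 promoter stretch, chr12:112938252-112938351, plus strand: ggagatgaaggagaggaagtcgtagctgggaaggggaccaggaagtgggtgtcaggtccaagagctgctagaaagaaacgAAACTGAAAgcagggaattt

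OAS3 was at 25.5, 9.58 and 18.8 with lapatinib and at 152, 436 and 345 with GSK126, a difference of 4.01 ± 0.48 (adjusted p = 0.000782, limma). The interferon core lay in 6.92% of all promoters searched and in 64.3% of those of the class I and interferon lists (27 of 42). Among genes at least 2-fold higher with GSK126 it lay in 10.8% where DMSO matched lapatinib (38 of 351) and in 4.72% where DMSO matched GSK126 (16 of 339). The STAT letters TTCNNNGAA lay in 6.38% of all promoters and in 6.31% of those of genes at least 2-fold higher with GSK126, and occurred together with the interferon core in 71 promoters. A match of letters is a description and shows no bound factor.

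Genes of NF-kB feedback and chemokines followed, with 12 of 15 higher with GSK126 and none with lapatinib (median difference of 2.52). ICAM1, an adhesion molecule for leukocytes, was at 10.8, 20.2 and 16.9 with lapatinib and at 360, 416 and 478 with GSK126, a difference of 4.66 ± 0.30 (adjusted p = 0.000109, limma). Its DMSO libraries (51.2 to 68.2) lay between the drugs and outside both. The monocyte chemokine gene CCL2 differed by 4.55 ± 0.33, the NF-kB subunit RELB by 2.52 ± 0.24 and CXCL16 by 2.72 ± 0.29. UBD, a ubiquitin-like modifier induced by cytokines, and TRIM31, a ubiquitin ligase, were among the largest differences of all, at 5.55 ± 0.50 and 6.90 ± 0.40. Summed leukocyte markers were 256 to 334 with lapatinib and 384 to 534 with GSK126, and most of either sum was CD68, which SKBR3 cells also expressed in DMSO. ITGAM, at 1.96 to 2.82 with lapatinib and 39.9 to 59.1 with GSK126, was the only one called of the 4 tested. The pan-leukocyte gene PTPRC was at 0 in 4 of the 6 libraries and under 2 in the rest.

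Developmental regulators that PRC2 is known to silence were split, but the wide differences were on the GSK126 side. Of 30 tested, 13 were higher with GSK126 and 5 higher with lapatinib (FOXA1, PAX9 and the Iroquois genes IRX2, IRX3 and IRX5), with a median difference of 0.45 in favour of GSK126. The 5 became 2 without GSK126 library 3 or lapatinib library 1, 2 or 3, and 0 under spike-in scaling. RUNX3, a runt-family transcription factor, was at 3.92, 0 and 0.94 with lapatinib and at 160, 82.1 and 130 with GSK126, a difference of 5.83 ± 0.62. The forkhead gene FOXC1 was at 0, 0 and 2.82 with lapatinib and at 106, 75.2 and 49.5 with GSK126. TBX2, HEY1 and ZIC5 were higher with GSK126 by 4.21 ± 0.49, 2.14 ± 0.21 and 2.84 ± 0.33. RUNX3, FOXC1 and TBX2 were under 10 in every lapatinib library and entered the test through their GSK126 libraries alone. A call on the other side was not open to them, so their calls add nothing to the levels. Of 34 HOX genes in the table only 8 reached the filter and were tested, all of the HOXC cluster, and 4 of them were higher with GSK126. Of these HOXC11 differed by 2.47 ± 0.25 with DMSO at the lapatinib level, and HOXC8 by 2.46 ± 0.46 with DMSO (62.3 to 168) overlapping the GSK126 range.

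Basal and mesenchymal genes were higher with GSK126 as 8 of 13, none the other way (median difference of 1.51), and none of the luminal keratins KRT8, KRT18 and KRT19 was called. CD44, a hyaluronan receptor, was at 90.1, 163 and 117 with lapatinib and at 629, 888 and 733 with GSK126, a difference of 2.62 ± 0.26 (adjusted p = 0.000372, limma). NT5E, the surface enzyme CD73, was at 167, 198 and 186 with lapatinib and at 996, 1732 and 1413 with GSK126. KRT6B, a keratin of stratified epithelia, was at 4.90, 1.06 and 0 with lapatinib and at 287, 183 and 241 with GSK126, a difference of 6.67 ± 0.63. Summed myoepithelial markers were 46.8 to 65.6 with lapatinib and 138 to 202 with GSK126, with OXTR the only member called and KRT14 and TP63 under 15 throughout, and their part in these results was not tested. Of the YAP and TEAD targets 8 of 16 were higher with GSK126 (5 without lapatinib library 2), such as the matrix gene CTGF by 2.87 ± 0.36. Of the TGF-beta, BMP and ID genes 10 of 19 were (6 without lapatinib library 1 or 2) and 3 were higher with lapatinib (5 without GSK126 library 2, 2 without library 3 and 1 without lapatinib library 1, 2 or 3). Those higher with GSK126 included TGFB2 by 2.27 ± 0.26 and SMAD3 by 1.80 ± 0.24.

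The ligands of that family did not share a direction. TGFB3 was at 6353, 5968 and 5659 with lapatinib and at 1322, 1935 and 2508 with GSK126, higher with lapatinib by 1.69 ± 0.24 (adjusted p = 0.00164, limma), whereas BMP2 was at 2.94, 3.19 and 2.82 against 85.4, 75.2 and 84.0. Notch genes (7 of 12) and Wnt genes (9 of 22) had called members on the GSK126 side only, although 1 Notch gene was called higher with lapatinib without GSK126 library 1 or 2. The Wnt count was 5 without lapatinib library 1 and 12 at most with 1 library left out, and it was 3 with a filter at 50, where the median difference (lapatinib minus GSK126) moved from -0.90 to -0.18. Named members higher with GSK126 were the ligand JAG2 by 1.62 ± 0.20, the receptor NOTCH1 by 1.12 ± 0.17 and the ligand WNT4 by 1.63 ± 0.24. CDH5, the cadherin of endothelial cells, was at 81.3, 56.4 and 60.1 with lapatinib and at 867, 1529 and 1400 with GSK126, a difference of 4.22 ± 0.27. Of the 3 endothelial markers tested, ESAM was also higher with GSK126, by 0.69 ± 0.20, and VWF was higher with lapatinib by 1.92 ± 0.37. PECAM1, KDR, TEK, CLDN5 and EMCN were under 4 in all 6 libraries. The 8 endothelial markers summed to 619 to 725 with lapatinib and 1620 to 2323 with GSK126, and their part in the other results was not tested. Fibroblast markers summed to 313 to 348 with lapatinib and 340 to 478 with GSK126, and of 4 tested, ACTA2 and THY1 were higher with GSK126, by 0.91 ± 0.25 and 2.11 ± 0.65, and COL1A2 was higher with lapatinib. COL1A2 was at 35.3, 20.2 and 58.2 with lapatinib and at 0 in all 3 GSK126 libraries, at least 13.8-fold lower there.

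**Figure D3:**
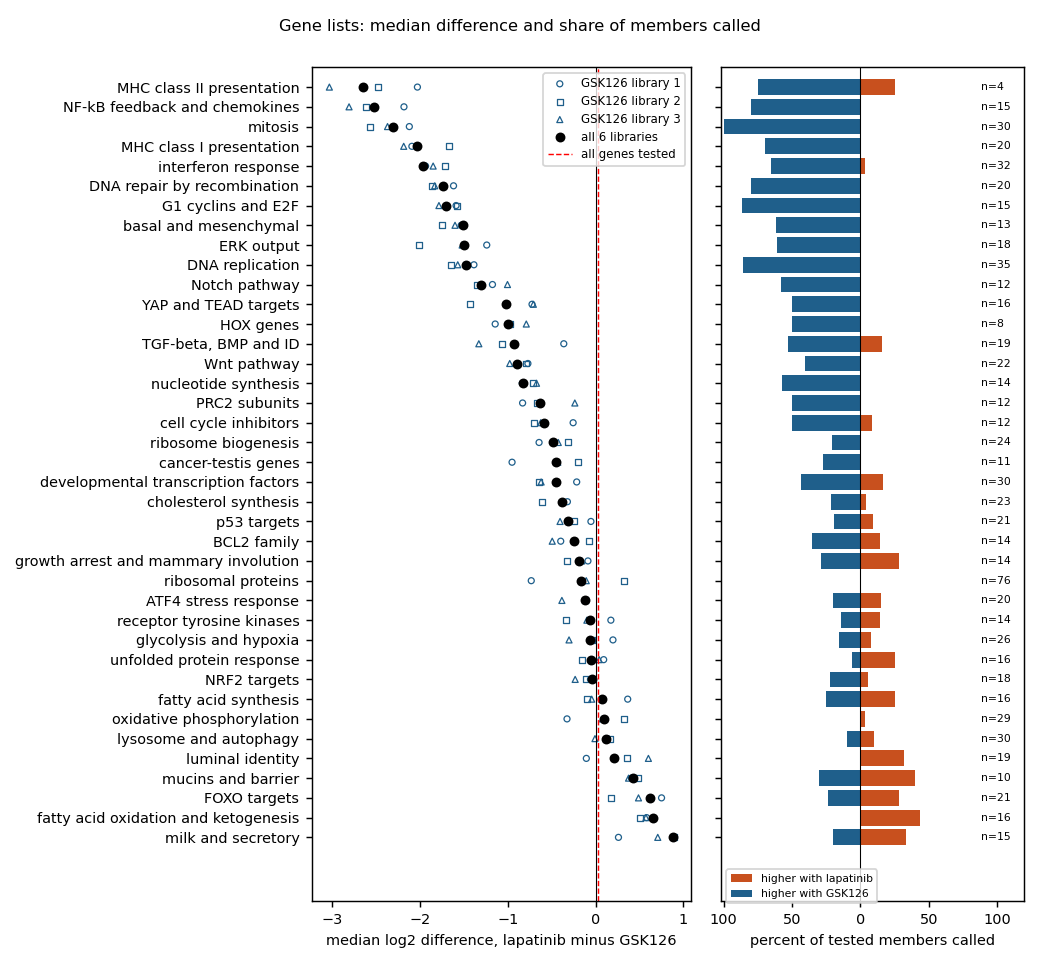
Left, median log2 difference (lapatinib minus GSK126) of each gene list over its tested members, from all 6 libraries (filled) and for each GSK126 library against the lapatinib mean (open), with the median of all tested genes as a dashed line. Right, percent of tested members called in each direction, with the number tested; mitosis reaches 100% on the GSK126 side, and fatty acid oxidation, luminal identity and oxidative phosphorylation have calls on the lapatinib side only.

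Genes higher with lapatinib were fewer at large differences, and THRSP, ABCC11 and HSD17B2 were among the widest. THRSP, a regulator of fatty acid synthesis in mammary and fat tissue, was at 820, 816 and 839 with lapatinib and at 20.8, 54.5 and 46.0 with GSK126. The DMSO libraries (235 to 297) lay between, and the difference was 4.43 ± 0.35 (adjusted p = 0.00015, limma). ABCC11, a transporter of apocrine secretion, was at 1351, 1346 and 1581 with lapatinib and at 40.5, 107 and 80.4 with GSK126, higher with lapatinib by 4.32 ± 0.34. HSD17B2, which inactivates sex steroids, was at 2162, 2186 and 2188 with lapatinib and at 274, 235 and 236 with GSK126. Its DMSO libraries, at 791 to 959, were again between and outside both groups, and the difference was 3.13 ± 0.17 (adjusted p = 0.000109, limma). The genes C1orf64 and KIAA1324 and the interleukin receptor gene IL17RE were higher with lapatinib by 3.08 ± 0.18, 2.80 ± 0.17 and 2.57 ± 0.19.

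Of 19 luminal identity genes, 6 were higher with lapatinib (10 without GSK126 library 1, 4 at the lowest with 1 library left out) and none higher with GSK126 (median difference of 0.21, which turned to -0.37 under spike-in scaling). XBP1, the factor of the secretory cell and of the unfolded protein response, was at 52589, 51597 and 55008 with lapatinib and at 6862, 10545 and 8859 with GSK126. DMSO was at 17363 to 20121, and the difference was 2.62 ± 0.20 (adjusted p = 0.000141, limma). SPDEF, a factor of secretory epithelium, and TFAP2A were higher with lapatinib by 1.42 ± 0.23 and 1.18 ± 0.16. A pair of relatives of XBP1 in secretory cells were also higher: CREB3L1 was at 809, 652 and 709 with lapatinib and at 69.0, 62.9 and 87.5 with GSK126, and CREB3L4 was higher with lapatinib by 1.65 ± 0.18. Of 16 genes of the unfolded protein response list, 4 were higher with lapatinib, CREB3L1, CREB3L4, HERPUD1 and DNAJB9, and 1 higher with GSK126. Among all tested genes the shares were 9.55 and 14.5%. The chaperone gene HSPA5, at -0.34 (lapatinib minus GSK126), did not pass the test.

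The targeted receptor was among the genes higher with lapatinib. ERBB2 was at 296380, 290540 and 305780 with lapatinib and at 149370, 123880 and 88082 with GSK126. DMSO, at 143490 to 166910, overlapped the GSK126 range, and the difference was 1.34 ± 0.23 (adjusted p = 0.0044, limma). The adaptor gene GRB7, its neighbour in the amplified region, was at 43827, 42369 and 38395 against 16416, 12703 and 19365 and differed by 1.38 ± 0.20. Both calls, like most on the lapatinib side, were lost under spike-in scaling (differences of 0.76 and 0.80, limma adjusted p = 0.427 and 0.613). ERBB3, the partner of HER2, was at 9932, 9958 and 9958 with lapatinib and at 8938, 5349 and 5715 with GSK126. Its difference of 0.62 ± 0.22 did not pass (adjusted p = 0.0745, limma), and it did pass without GSK126 library 1 (0.85, adjusted p = 0.000773). EGFR, at 738, 738 and 803 against 761, 2230 and 1332, was -0.79 ± 0.35 (adjusted p = 0.139, limma), and -1.18 without GSK126 library 1 (adjusted p = 0.00424) but -0.41 without GSK126 library 2 (adjusted p = 0.236). EGFR was called with DESeq2 (adjusted p = 0.0384) and with a replicate block in limma (adjusted p = 0.0483). Among other receptor kinases FGFR4 was higher with lapatinib by 1.17 ± 0.18 and FGFR3 higher with GSK126 by 1.08 ± 0.18. INSR, higher with GSK126 by 0.88 ± 0.21, lost its call without lapatinib library 1, 2 or 3 (adjusted p = 0.0856, 0.0712 and 0.0884).

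FOXO targets went both ways, 6 of 21 higher with lapatinib and 5 higher with GSK126, beside 9.55 and 14.5% of all tested genes. The first count was 11 without GSK126 library 2 and 3 without lapatinib library 1, 2 or 3, and the second was 3 without lapatinib library 2 or 3. TXNIP, an inhibitor of glucose uptake, was at 7508, 7021 and 7358 with lapatinib and at 2229, 3700 and 3343 with GSK126, a difference of 1.27 ± 0.21 (adjusted p = 0.00363, limma). The DMSO libraries were lower than either, at 1194 to 1579. PIK3IP1, which restrains PI3K, and BCL6, a transcriptional repressor, were higher with lapatinib by 1.16 ± 0.20 and 1.13 ± 0.19. On the other side stood the insulin pathway genes IRS2 and INSR, SESN3, KLF6 and PDK4. FBXO32, a ubiquitin ligase and a classic target, was equal and is described with the shared genes.

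Fatty acid oxidation and ketogenesis genes had 7 of 16 members higher with lapatinib and none higher with GSK126 (median difference of 0.66, and 0.08 under spike-in scaling, where none were called). The count was 10 without GSK126 library 1 and 3 at the lowest when 1 library was left out. ECI2, an enzyme for unsaturated fatty acids, was at 2754, 3058 and 2849 with lapatinib and at 669, 444 and 500 with GSK126, a difference of 2.44 ± 0.20 (adjusted p = 0.000161, limma). HADHB, of the trifunctional protein, was higher with lapatinib by 1.01 ± 0.20. Of 16 fatty acid synthesis genes, 4 were called each way, beside 9.55% (lapatinib side) and 14.5% (GSK126 side) of all tested genes. The lapatinib side of the list fell to 1 without lapatinib library 1, 2 or 3. FASN and THRSP were higher with lapatinib, while the desaturase genes FADS1 and FADS2 were higher with GSK126, FADS2 by 3.07 ± 0.41.

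Milk, mucin and cytokine-feedback genes showed oppositely directed members within a list. Of 15 milk and secretory genes, 5 were higher with lapatinib, a count of 8 without GSK126 library 1 and 1 without lapatinib library 1, 2 or 3, and 3 were higher with GSK126. Among all tested genes the shares were 9.55 and 14.5%. ELF5, the factor of alveolar cells, was at 370, 424 and 420 with lapatinib and at 118, 198 and 162 with GSK126, a difference of 1.37 ± 0.24 (adjusted p = 0.00439, limma). STAT5A, which prolactin activates, was at 103, 64.9 and 87.3 with lapatinib and at 1094, 588 and 729 with GSK126, a difference of 3.20 ± 0.29 the other way (adjusted p = 0.000254, limma). CISH, a feedback inhibitor that STAT5 induces, was higher with lapatinib by 1.46 ± 0.17. LCN2, a siderophore-binding protein, and PIGR, the receptor that carries antibodies into secretions, were higher with GSK126 by 3.93 ± 0.37 and 3.87 ± 0.42. Among mucins MUC16 was higher with lapatinib by 1.29 ± 0.16, and MUC3A and MUC20 were higher with GSK126 by 3.63 ± 0.26 and 2.75 ± 0.37, with reads that repeats and copies may share.

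Of 23 sterol genes 5 were higher with GSK126 and 1 with lapatinib, beside 14.5 and 9.55% of all tested genes. The 5 became 10 without GSK126 library 1, 3 without lapatinib library 1, 2 or 3 and 0 under spike-in scaling. INSIG1, the sensor that holds back the sterol response, was at 301, 298 and 297 with lapatinib and at 898, 947 and 827 with GSK126. Its DMSO libraries (805 to 945) overlapped GSK126. TM7SF2, a sterol reductase gene, was higher with lapatinib by 1.28 ± 0.23. Among BCL2 family genes PMAIP1, the NOXA gene, was at 14.7, 12.8 and 4.69 with lapatinib and at 159, 169 and 131 with GSK126, a difference of 3.84 ± 0.43 (adjusted p = 0.00059, limma). BOK and BCL2 were also higher with GSK126, and BCL2L11, the BIM gene, and BCL2L1 were higher with lapatinib, calls that were lost without lapatinib library 1, 2 or 3. The GSK126 side of that list, 5 of 14 beside 14.5% of all tested genes, was 3 without lapatinib library 3. In the stress list of ATF4 targets, 3 of 20 were higher with lapatinib and 4 with GSK126, not far from the 9.55 and 14.5% of all tested genes. The first count was 5 without GSK126 library 1 and 0 without lapatinib library 1, 2 or 3. The second was 7 without GSK126 library 1 and 2 without lapatinib library 2. Those higher with GSK126 included PHGDH of serine synthesis by 1.86 ± 0.17 and ATF3 by 2.29 ± 0.26.

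Ribosomal protein and oxidative phosphorylation genes gave 1 call between them, and lysosome and glycolysis genes were called at about the 24.1% of all tested genes. None of 76 ribosomal protein genes was called (median difference of -0.17, lapatinib minus GSK126). Set against the lapatinib mean, the list's median was 0.73 higher in GSK126 library 1 and 0.11 higher in library 3, and it was -0.32 in library 2. Of 29 oxidative phosphorylation genes only SDHA was called, higher with lapatinib by 0.74 ± 0.17, and it lost the call without lapatinib library 1, 2 or 3 (adjusted p = 0.0959, 0.085 and 0.0732). Of 30 lysosome and autophagy genes, 3 were higher with lapatinib (8 without GSK126 library 1, 7 without library 2, and 0, 1 and 0 without lapatinib library 1, 2 or 3) and 3 higher with GSK126 (5 without GSK126 library 2, and 1 without library 3 or any lapatinib library). Of 26 glycolysis and hypoxia genes, 2 were higher with lapatinib (4 without GSK126 library 1 or 2, and 0 without lapatinib library 1, 2 or 3) and 4 higher with GSK126 (7 without GSK126 library 1, and 2 without library 3 or any lapatinib library), with ADM and ENO2 higher with GSK126 by 3.51 ± 0.23 and 3.82 ± 0.38.

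Genes near 0 in one state and well above it in the other were mostly silent with lapatinib. Under 5 in every lapatinib library and with a mean of at least 50 with GSK126 were 41 genes, and the reverse held for none. With a ceiling of 10, chosen after the data were seen, the counts were 108 and 2. Of the 41, 12 were under 5 in every DMSO library too, 13 were at 5 or more in every DMSO library, and in 13 the combination had a mean of at least 50. All 41 passed the filter through their GSK126 libraries alone and all were called, so those calls add nothing to the levels. The same holds for PARP14, UBD, TBX2 and BCL2, under 10 in every lapatinib library, and in reverse for COL1A2. GAL, the neuropeptide galanin, was at 0 in all lapatinib libraries and at 226, 82.8 and 124 with GSK126, at least 48.3-fold higher. The zinc-finger factor gene BCL11B was at 3.92, 1.06 and 1.88 with lapatinib and at 269, 181 and 158 with GSK126. PRPS2, an enzyme that starts nucleotide synthesis, was at 0.98, 2.13 and 1.88 against 51.5, 219 and 137. CYP2S1, a cytochrome of epithelia, was at 0 in all lapatinib and all DMSO libraries and at 46.0, 52.2 and 63.6 with GSK126, at least 18.1-fold higher. More widely, the lower group had a mean under 5 in 15.4% of the genes at least 2-fold higher with GSK126 (244 of 1583) and in 5.15% of those higher with lapatinib (38 of 738).

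To see which drug stood away from vehicle, DMSO was placed on a scale from the GSK126 mean (0) to the lapatinib mean (1) for each gene called at 2-fold or more, a description with no test. Among the 1583 genes higher with GSK126, DMSO lay within 0.25 of the GSK126 level for 420, within 0.25 of the lapatinib level for 449, and between for 473. Among the 738 higher with lapatinib it lay at the GSK126 level for 275, at the lapatinib level for 59, and between for 328. A further 157 of the GSK126-higher genes had DMSO beyond the lapatinib side and 84 beyond the GSK126 side, and 75 of the lapatinib-higher genes had it beyond the GSK126 side. The lists took different places on this scale. The median DMSO position was -0.02 for mitosis and -0.18 for DNA replication, but 0.97 for interferon response, 0.90 for MHC class I, 0.82 for YAP and TEAD targets and 0.78 for developmental factors. NF-kB genes (0.72) and ERK output (0.25) lay in between.

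Cells given both drugs took a different side for each set. Where DMSO matched GSK126 among the GSK126-higher genes, the combination was at the lapatinib level for 276 of 420 (65.7%), MKI67 among them at 1283, 1344 and 1307. Where DMSO matched lapatinib, the combination was at the GSK126 level for 284 of 449 (63.3%), PSMB8 among them at 1711, 1988 and 2224. Where DMSO matched GSK126 among the lapatinib-higher genes, it was at the lapatinib level for 99 of 275 (36.0%) and between for 158. A sum of the log2 changes of the single drugs would put the combination at 1 minus the DMSO position, and it lay within 0.25 of that for 948 of the 1583 (59.9%) and 358 of the 738 (48.5%). FGFR4, where DMSO matched lapatinib, went past the GSK126 level in the combination, at a position of -0.96. Taken one at a time, the 3 combination libraries gave median positions of 0.25, 0.34 and 0.31 for the GSK126-higher genes and 0.59, 0.54 and 0.53 for the lapatinib-higher genes. Combination library 1 differed from the others in make-up. It held 17693103 gene reads, against 29258384 and 27026797 in libraries 2 and 3, but 21669 genes with a read, against 17338 and 16436. What this did to the positions was not tested. All these positions share their end points, so DMSO and combination are not independent readings.

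**Figure D4:**
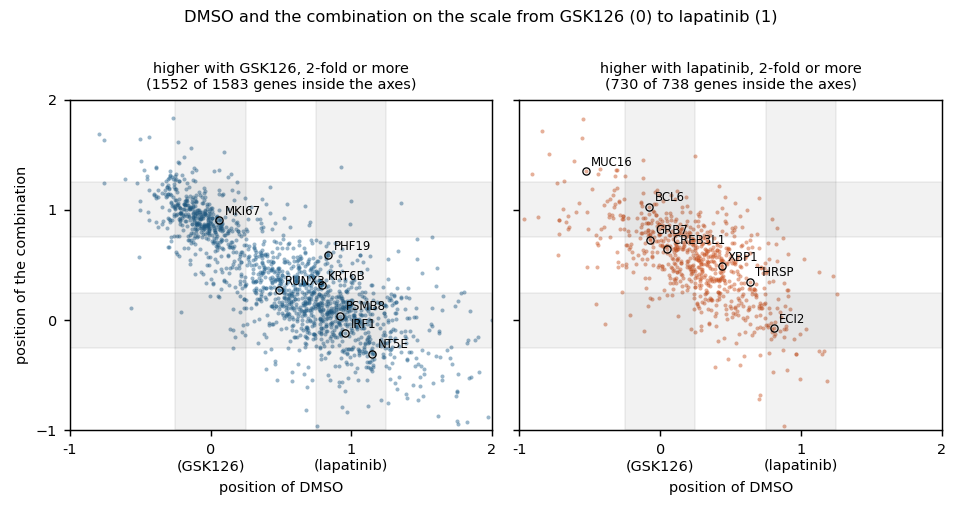
Each point is a gene called at 2-fold or more, with the position of DMSO on the x axis and of the combination on the y axis, on the scale from the GSK126 mean (0) to the lapatinib mean (1); shaded bands lie within 0.25 of either end. Genes higher with GSK126 (left) gather near the upper left, where MKI67 lies, and the lower right, where PSMB8 and IRF1 lie; genes higher with lapatinib (right) spread along one band.

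Few genes left the vehicle level by a like amount with either drug. In a fit of the DMSO, lapatinib and GSK126 libraries (13705 genes), 75 genes differed by 2-fold or more between DMSO and the mean of the drugs and had a 95% interval of the difference between the drugs within 2-fold. Of these, 67 were higher than DMSO (0.489% of the genes) and 8 lower (0.0584%). FBXO32, a ubiquitin ligase of atrophy and a FOXO target, was at 1082, 1104 and 1131 in DMSO, 4882, 4685 and 4920 with lapatinib and 4812, 5010 and 5234 with GSK126. The drug groups overlapped, the interval of lapatinib minus GSK126 in this fit was -0.33 to 0.22, and the common difference from DMSO was 2.15 ± 0.11. CHAC1, which breaks down glutathione, was at 76.0, 64.2 and 54.4 in DMSO, 233, 238 and 254 with lapatinib and 195, 216 and 308 with GSK126. CEACAM5, a cell surface glycoprotein of epithelia, PTPRH, a receptor phosphatase, SNTB1, a syntrophin, and ABCA4, a lipid transporter, were higher than DMSO by 2.30 ± 0.20, 2.22 ± 0.29, 2.04 ± 0.24 and 2.42 ± 0.30. Of the 8 lower genes, the non-coding RNA gene DLEU1 differed by -1.30 ± 0.23 and LANCL1 by -1.15 ± 0.25. For 7 of the 75 the interval left out 0, so that a smaller difference between the drugs remained, as for VKORC1, a vitamin K reductase gene (-0.87 to -0.04).

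In most of the shared genes above DMSO every combination library lay past all 6 single-drug libraries, and in most of those below this did not hold. In 50 of the 67 higher genes (74.6%) every combination library exceeded all 6 single-drug libraries, and in 30 the combination mean was 2-fold or more past the mean of the single drugs. FBXO32 stood at 14716, 14637 and 13637 in the combination, CEACAM5 at 2655, 2568 and 2211 and CHAC1 at 1788, 1747 and 1821. In 3 of the 8 lower genes every combination library was below all 6, DLEU1 at 93.3, 79.3 and 62.6 among them. By group means the combination was further from DMSO at the median in both sets. It lay past the mean of the single drugs by 0.88 on the log2 scale for the higher genes and by 0.59 for the lower. The count of 75 was 134 without GSK126 library 1, 49 without lapatinib library 1 or 3, and 0 under spike-in scaling. A gene fails to enter this list also where the interval is too wide, so genes outside it are not shown to differ.

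**Figure D5:**
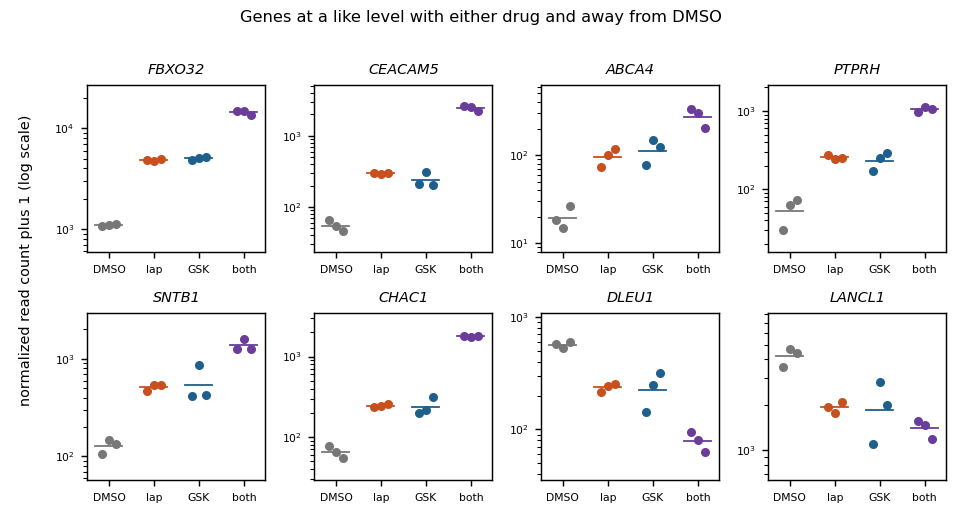
Normalized read count plus 1 (log scale) in each library for 8 genes at a like level with either drug and away from DMSO, by treatment, with a line at each group's mean of log2 values. The lapatinib and GSK126 points lie side by side, and the combination lies beyond them in every gene but LANCL1, where GSK126 library 1 is lowest.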

How the data were processed

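Messenger RNA was measured in 12 libraries of SKBR3 cells, with total RNA extracted by column kit and mRNA libraries, per the labels' protocols. Reads were aligned with STAR to hg19 and normalized with DESeq2, per the submitters' processing notes; versions, counter, annotation, strand and filters are not given in the sources used here. What the authors deposited is a normalized signal for each gene, in effect a read count scaled by 1 size factor per library. All values were whole multiples of the smallest value above 0 in their column (100% within 0.01), so reads could be recovered. Overlapping genes, antisense genes and gene families may share reads. In 25 cases a symbol had become a date, and these genes were left out of the named genes.

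Here log2(value + 1) of the 6 libraries was fitted with limma 3.58.1 (R 4.3.3), with a trended prior variance, on genes of at least 10 in at least 3 libraries, with Benjamini-Hochberg adjustment over 13471 genes and a threshold of 0.05. The shared genes came from a fit of 9 libraries. edgeR 4.0.16 and DESeq2 1.42.0 on recovered reads, other scalings, filters, pseudocounts and left-out libraries were alternatives. On the recovered reads edgeR called 1188 genes higher with lapatinib and 2031 higher with GSK126, and DESeq2 called 1587 and 2414. The procedure was also run on simulated counts drawn with the same dispersion for either drug. That run does not test it at the unequal spread of these libraries (median SD of 0.11 with lapatinib and 0.42 with GSK126). The genes, lists and comparison were chosen with earlier results of these data known. Named genes were the 14 largest called differences each way with a mean of at least 50 and no overlap, up to 4 per list by adjusted p, a set of receptors and cell cycle genes, silent genes, and shared genes; a few list members were named after their values were seen. Some genes are not reported here.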

Additional observations from a re-analysis of the deposited data

How the results depend on the processing

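No gene called in one direction was called in the other under any alternative run, but 5 list medians turned under spike-in scaling: luminal identity (0.21 to -0.37), mucins and barrier (0.42 to -0.16), fatty acid synthesis (0.07 to -0.51), lysosome and autophagy (0.12 to -0.46) and oxidative phosphorylation (0.10 to -0.48). The count of genes higher with lapatinib, 1287, became 2113 with all 12 libraries in the fit, 32 under spike-in scaling and 432 to 2241 with 1 library left out. At 2-fold or more, 738 became 32 under spike-in scaling and 402 to 1007 with 1 library left out. On the GSK126 side, 1953 and 1583 both became 979 under spike-in scaling, which moved the median of all genes to -0.55. The count of shared genes, 75, became 0 under spike-in scaling and 49 to 134 with 1 library left out. Why these counts moved was not tested. With a replicate block the counts were 1266 and 1890. Same-numbered libraries of the drugs did not deviate together from their group means (r of -0.07, -0.23 and -0.17). Deviations from a mean of 3 libraries are tied to each other, so these values cannot settle whether the numbers pair the libraries. With 3 libraries a group, an exact permutation test of 1 gene cannot go below 0.1, and levels of a few reads are set mostly by counting error.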
